A study of Mus musculus with 22 samples.

Results

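The livers of female mice without a pituitary were examined 90 min after a single injection of growth hormone (GH), on 2 arrays out of the 22 of the series. Both arrays were chosen by their labels, which name the comparison and the dye of each pool, and no measured value entered the choice. All animals were ICR mice aged 8 weeks. In the GH group, hypophysectomised (Hypox) females, from which the pituitary had been removed, received 1 injection of GH and were killed 90 min later. In the Hypox group, females had lost the pituitary and received no GH, so that both groups lacked the pituitary. Array 1 set a pool of 4 GH-treated livers, labelled with Alexa 555, against a pool of 2 Hypox livers, labelled with Alexa 647. Array 2 set a pool of 3 GH-treated livers, in Alexa 647, against a pool of 2 Hypox livers, in Alexa 555. The source, dose and route of the hormone are not given in the sources used here, nor whether the Hypox pools of both arrays hold the same mice. Other comparisons of 2 arrays each serve below as points of reference. They are Hypox males 90 min after 1 injection over Hypox males, Hypox females 30 min after 1 injection over Hypox females, and Hypox females 30 min after the last of 2 injections over Hypox females. P values measure the spread between arrays of the same comparison, as 1 estimate shared by all 11 comparisons of the series. The animals within a pool add no replication.

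GH is released in pulses by the pituitary and acts on hepatocytes through the GH receptor. The receptor activates the kinase JAK2, which phosphorylates the transcription factors STAT5A and STAT5B. Active STAT5 enters the nucleus, binds sites in chromatin and starts transcription within minutes. Among its best-known targets are its own inhibitors, of the SOCS family with Cish, and Igf1, which carries the growth signal to the rest of the body. The pattern of GH pulses differs between the sexes, and many genes of the rodent liver are expressed more in one sex because of it.

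The injection was followed by large rises of a small set of genes. Values are log2 ratios of GH over Hypox, the mean of both arrays ± SE from a limma fit to all 22 arrays, and calls needed the same sign on each array and an adjusted p below 0.05. Of 26191 genes tested, 830 (3.17%) were called, against 5 in a fit to the 2 arrays alone. A total of 614 genes (2.34%) rose and 216 (0.825%) fell. By at least 1.5-fold, 210 genes rose and 81 fell, and by at least 2-fold, 66 rose and 22 fell. The median ratio over all genes was 0.01, and 14069 of the 26191 lay above 0. These values are the background for the counts of gene lists below. The split between rises and falls changed with the processing: 838 genes rose and 773 fell without background correction, and 531 rose and 427 fell with the scanner software's own log ratio, which replaces both background correction and normalization. Leaving out array 1 left 501 calls and leaving out array 2 left 88. Of 55 named genes that were called, 26 were still called without array 1 and 10 without array 2. Socs2, Nrep, Fzd7, Nceh1, Sybu, Ect2, Foxa1 and Zkscan1 were called without either.

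**Figure D1:**
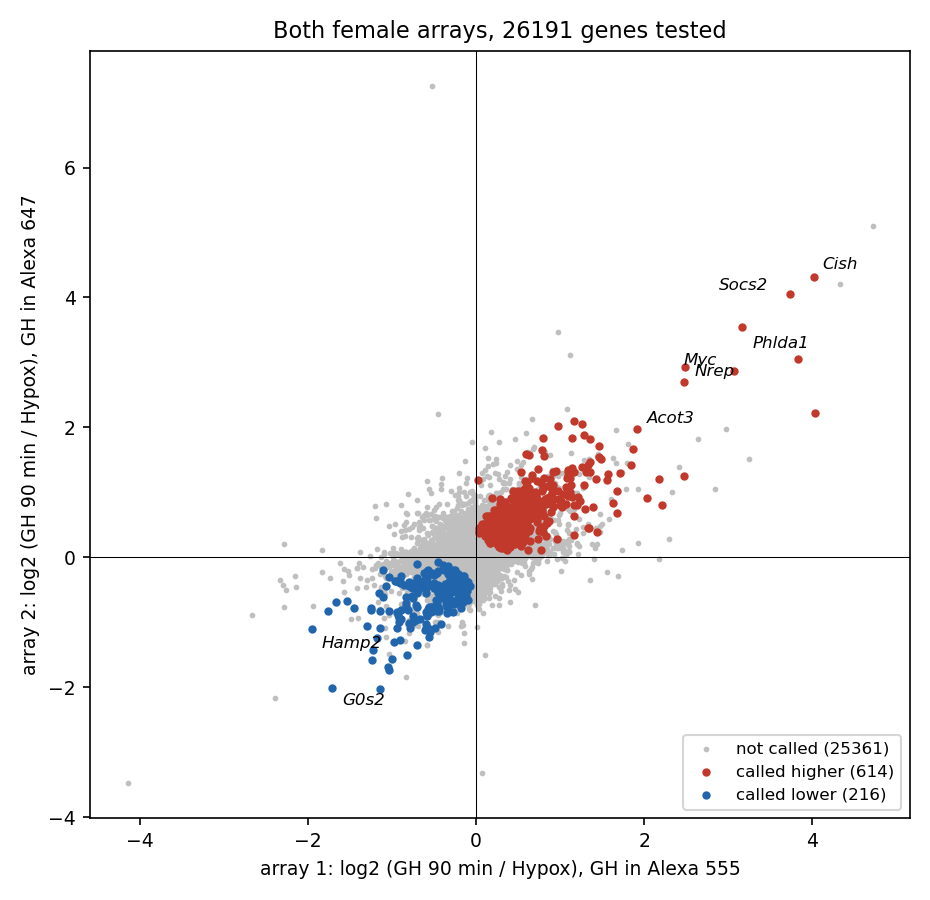
Each point is 1 of 26191 genes tested, with the log2 ratio of GH over Hypox on array 1 (horizontal) and array 2 (vertical), which carried opposite dyes. Red points were called higher (614), blue points lower (216), and Cish, Socs2, Phlda1, Myc and Nrep lie at the upper right, above 2 on both arrays.

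Cish and Socs2, which restrain GH signalling, had the highest ratios among called genes with a symbol. Signals are normalized intensities, comparable only between the pools of 1 array. That of Cish, an SH2 protein that blocks STAT5 docking at the receptor, was 20273 and 26177 in the GH pools of arrays 1 and 2, against 1248 and 1319 in the Hypox pools. Both arrays gave nearly the same rise, of 4.02 and 4.31 (log2 ratio 4.17 ± 0.68, 18-fold, adjusted p = 0.0065). Socs2, whose product recruits a ubiquitin ligase to the GH receptor, had signals of 22771 and 30308 in the GH pools and 1708 and 1834 in the Hypox pools. Its ratio was 3.89 ± 0.39 (14.8-fold, adjusted p = 0.00032), and on each array the GH pool was far above the Hypox pool for both genes. Among 19 inhibitors of JAK-STAT signalling, 4 rose and none fell, against 2.34% and 0.825% of all genes, with a median of 0.13. The other 2 called members rose little: Socs4 by 0.45 ± 0.09 and Pias1, a SUMO ligase, by 0.30 ± 0.07. Socs1, at 1.52 (adjusted p = 0.11), and Socs3, at 0.38 (adjusted p = 0.90), did not pass. Without array 1, Cish stood at 3.95 (adjusted p = 0.079), and without array 2 at 4.38 (adjusted p = 0.14).

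The growth factor genes downstream of STAT5 rose far less. Igf1 gave 28877 and 41597 in the GH pools and 20434 and 21345 in the Hypox pools, and the GH pool was the higher on each array, by 0.50 and 0.96. The ratio was 0.73 ± 0.16 (1.66-fold, adjusted p = 0.032). The call was lost without array 1 (0.97, adjusted p = 0.059) and without array 2 (0.50, adjusted p = 0.59). Under median centring Igf1 stood at 1.34 (adjusted p = 0.026) without meeting the rule of the same sign on each array, and so did Lifr, described below, at 1.12. Igfals, which encodes the liver protein that holds IGF1 in a ternary complex in blood, was dimmer, at 412 and 749 in the GH pools and 279 and 540 in the Hypox pools. The ratios within the arrays were 0.56 and 0.47 (0.52 ± 0.10, adjusted p = 0.018). Lifr, a cytokine receptor expressed more in female liver, rose by 0.45 ± 0.07 (adjusted p = 0.0070), although its other 3 probes gave 0.01 to 0.31. Of 18 GH and STAT5 targets, 5 rose and none fell, against 2.34% and 0.825% of all genes, with a median of 0.29. Bcl6, a repressor that competes with STAT5 for its sites, had signals of 6573 and 6734 in the GH pools and 6485 and 7199 in the Hypox pools. Its ratio of -0.04 ± 0.28 (adjusted p = 0.99) showed no change beyond the error. Under median centring Bcl6 stood at 0.62 ± 0.33 (adjusted p = 0.14), also not called. The 13 genes of the receptor, the JAK kinases and the STAT factors had a median of 0.10 and no call. In the IGF axis, Igf1 and Igfals were the only 2 called of 15 genes tested, and the median was 0.03.

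**Figure D2:**
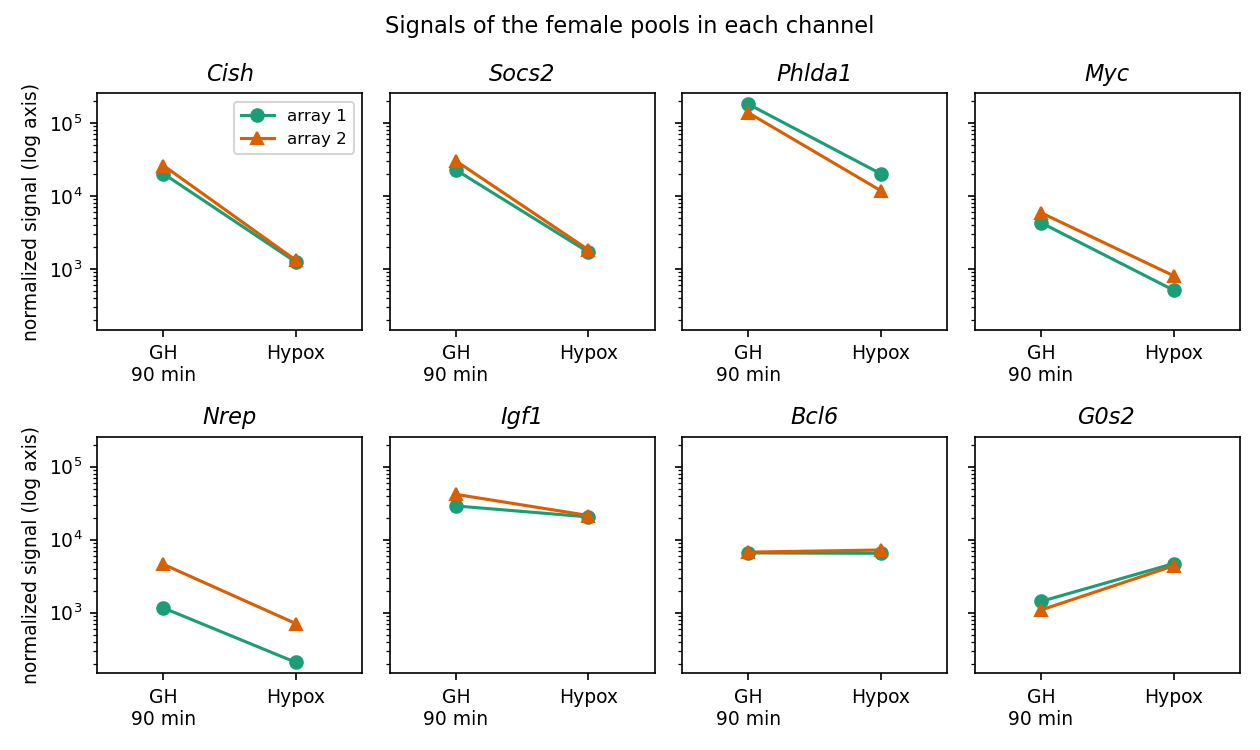
Normalized signal (log axis) of 8 genes in the GH pool, left, and the Hypox pool, right, with array 1 as circles and array 2 as triangles. Cish, Socs2, Phlda1, Myc and Nrep stand higher in the GH pool on both arrays, Igf1 slightly so, Bcl6 is level, and G0s2 stands lower.

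STAT5 binds the sequence TTCNNNGAA, which reads the same on both strands, so one search covers both. Promoter windows of RefSeq (build GRCm38.p6) reach from 250 bases before to 50 bases after the start of a gene. Among 32851 windows, 8.3% held the motif at least once, 0.457% at least 2 times and 0.0335% at least 3 times. Of the 65 named genes, 52 had a window and 11 of these held the motif in at least 1 window, against 9.55% of all genes with a window. Among the 15 largest rises, 10 had a window and 1, Cish, held it; among the 10 largest falls, 8 had a window and 2 held it. The windows of Cish (chr9:107296409-107296708, plus strand), Bcl6 (chr16:23981234-23981533, minus strand) and Igfals (chr17:24877594-24877893, plus strand) are shown 5′ to 3′, with the motif in capitals, since these 3 GH targets hold it and behaved differently at 90 min. Both sites of Cish lie side by side, starting at bases 1 and 12 of the gene.
Cish: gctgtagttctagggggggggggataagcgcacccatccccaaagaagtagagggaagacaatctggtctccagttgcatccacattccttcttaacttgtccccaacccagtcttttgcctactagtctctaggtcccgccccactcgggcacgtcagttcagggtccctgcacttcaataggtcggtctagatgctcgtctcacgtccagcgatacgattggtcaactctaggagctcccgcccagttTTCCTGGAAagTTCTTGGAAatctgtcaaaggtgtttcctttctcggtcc
Bcl6: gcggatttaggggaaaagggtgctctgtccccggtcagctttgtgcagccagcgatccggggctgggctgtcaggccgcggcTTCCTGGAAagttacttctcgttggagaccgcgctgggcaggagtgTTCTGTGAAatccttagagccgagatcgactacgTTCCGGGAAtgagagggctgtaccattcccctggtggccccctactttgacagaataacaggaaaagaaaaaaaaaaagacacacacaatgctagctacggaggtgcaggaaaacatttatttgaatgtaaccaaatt
Igfals: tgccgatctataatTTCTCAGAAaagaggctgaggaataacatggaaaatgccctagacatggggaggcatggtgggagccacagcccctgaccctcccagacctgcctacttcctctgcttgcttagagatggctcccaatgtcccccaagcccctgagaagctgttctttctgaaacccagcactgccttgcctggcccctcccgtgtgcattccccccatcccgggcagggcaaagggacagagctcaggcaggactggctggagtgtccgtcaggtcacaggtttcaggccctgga
The Cish window reads TTCCTGGAA and TTCTTGGAA, and the gene's ratio was the highest of all called genes with a symbol. The Bcl6 window, 1 of 2 for this gene, reads TTCCTGGAA, TTCTGTGAA and TTCCGGGAA, at bases -168, -122 and -88, and the ratio was near 0. The Igfals window, 1 of 3 for this gene, reads TTCTCAGAA at base -236, and the ratio was 0.52. A second Igfals window held a match at base -58 and the third held none. A match is a description of letters, and none of these windows says whether STAT5 was bound.

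Some genes of the first transcriptional wave were called, in both directions. The list of immediate-early genes holds genes that need no new protein for their induction. It had 5 rises and 2 falls among 38 tested, against 2.34% and 0.825% of all genes, with a median of 0.32. It had 1 rise and no fall without array 1, no call without array 2, and 11 rises and no fall under median centring. Phlda1, a growth factor-induced gene with a pleckstrin homology-like domain, had very bright signals of 180898 and 137837 in the GH pools, against 20139 and 11823 in the Hypox pools. Both arrays showed it, with 3.17 and 3.54 (3.36 ± 0.50, 10.2-fold, adjusted p = 0.0041). Fos, a component of the AP-1 factor, gave 2285 and 3911 in the GH pools and 937 and 1062 in the Hypox pools (1.58 ± 0.35, adjusted p = 0.032). The MAP kinase phosphatase gene Dusp1 rose by 1.32 ± 0.31 (adjusted p = 0.040). The remaining rises, named after their values were seen, were Ccn1 at 0.68 and Ier2 at 0.66. Gadd45b, a stress-responsive gene, fell by 1.33 ± 0.27 on the log2 scale (adjusted p = 0.020), with 2351 and 2743 in the GH pools against 5521 and 7415 in the Hypox pools. Its other probe gave -0.74. Klf10, also named after its value was seen, fell by 1.11 (adjusted p = 0.030). Egr1, at 1.40 (adjusted p = 0.075), and Jun, at 1.26 (adjusted p = 0.16), did not pass.

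Myc, a transcription factor that drives growth and ribosome production, rose 7.81-fold. Its signals were 4320 and 5914 in the GH pools and 516 and 812 in the Hypox pools, with ratios of 3.07 and 2.87 (2.97 ± 0.53, adjusted p = 0.011). Its 2 other probes gave 1.33 and 3.05, so all 3 went up. Without array 1 the ratio was 2.79 (adjusted p = 0.11), and without array 2 it was 3.14 (adjusted p = 0.19). Myc was the only call among 11 genes of the MYC network. Among 49 ribosome biogenesis genes, 5 rose and none fell, against 2.34% and 0.825% of all genes. In this list 42 lay above 0, against 14069 of 26191 over all genes, and the median was 0.14. The rise of Nop58, a core protein of box C/D small nucleolar particles, was 0.78 ± 0.14 (adjusted p = 0.010). Rrs1 and Ppan, which act in assembly of the large ribosomal subunit, rose by 0.60 ± 0.14 and 0.50 ± 0.12, and Noc4l, which acts on the small subunit, by 0.47 ± 0.10. Gar1, named after its value was seen, rose by 0.40. Without array 1 there were again 5 calls in this list, and without array 2 there was none. No gene was called among 11 of RNA polymerase I, 17 aminoacyl-tRNA synthetases and 18 translation initiation factors. The polyamine list of 8 genes had 1 call, Azin1, an inhibitor of antizyme, at -0.43 ± 0.10, which turned to 0.23 under median centring.

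Nrep, which encodes a small intracellular protein first described in neurons, rose on both arrays by nearly the same ratio. Its signals were 1159 and 4580 in the GH pools and 208 and 707 in the Hypox pools. The levels differed between arrays, and within each array the GH pool was far above the Hypox pool, by 2.48 and 2.70 (2.59 ± 0.24, 6.02-fold, adjusted p = 2e-04). A second probe gave 2.17. The Wnt receptor gene Fzd7 rose by 1.77 ± 0.13 (adjusted p = 0.00019), with 4563 and 4243 in the GH pools and 1251 and 1332 in the Hypox pools, while its other probe gave 0.30. Sybu, whose product links vesicles to kinesin, rose by 1.60 ± 0.17, and its other probe gave 0.07. Probes of these 2 genes thus disagreed.

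Other genes among the 15 that rose most have varied roles. Acot3, a peroxisomal acyl-CoA thioesterase, had 2543 and 3432 in the GH pools and 677 and 878 in the Hypox pools (1.94 ± 0.26, adjusted p = 0.0022). Nceh1, a cholesteryl ester hydrolase, gave 1.26 and 2.06 on the 2 arrays (1.66 ± 0.16, adjusted p = 0.00023). Both rose on each array. Hepacam, a cell adhesion protein, rose by 1.63 ± 0.31 (adjusted p = 0.015). Ect2, a gene of cytokinesis, rose by 1.51 ± 0.13 (adjusted p = 2e-04; other probe 0.51). The atypical E2F factor E2f8 was dim, with 359 and 852 in the GH pools and 78 and 485 in the Hypox pools. Its arrays gave unequal rises of 2.21 and 0.81 (1.51 ± 0.28, adjusted p = 0.014). Of 29 cell cycle genes, none was called, and the median was 0.04.

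**Figure D3:**
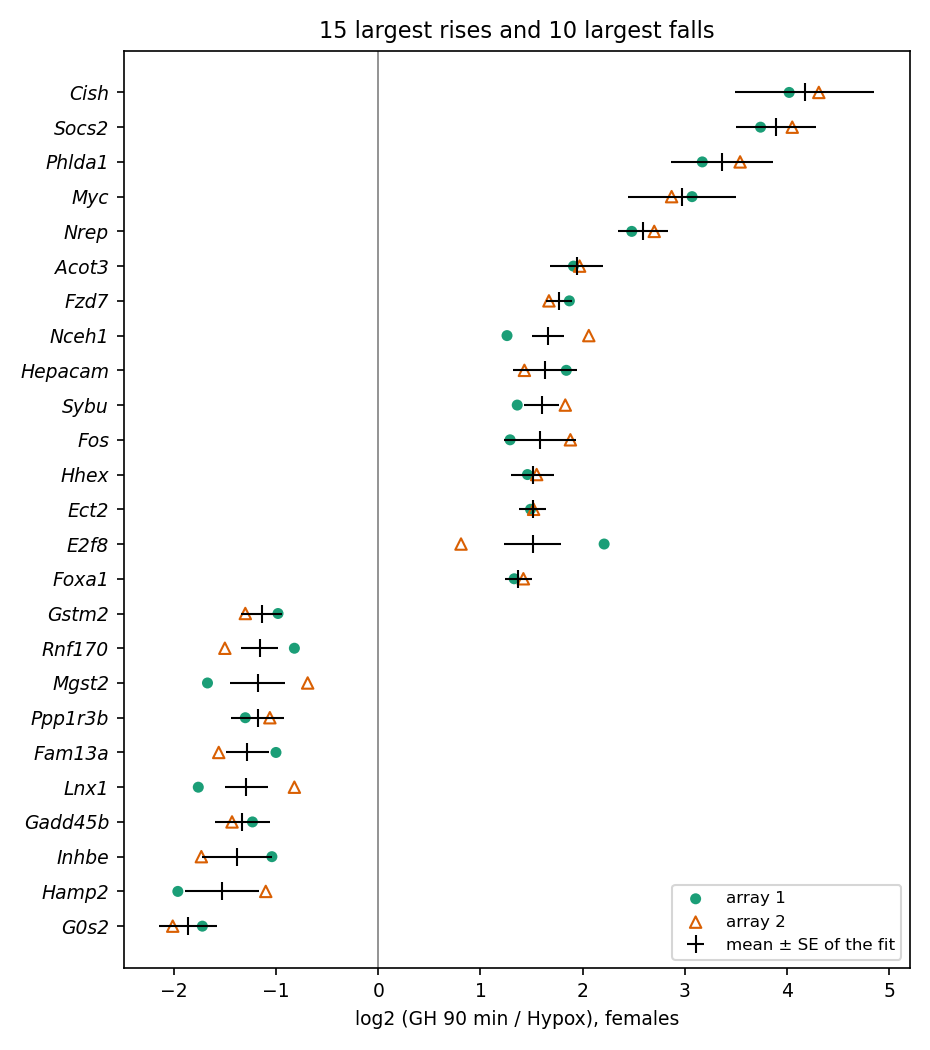
Log2 ratios of GH over Hypox for the called genes that rose most (15) and fell most (10), with array 1 as filled circles, array 2 as open triangles and the mean ± SE of the fit in black. Cish at 4.17 and G0s2 at -1.86 mark the ends, and the arrays lie farthest apart for E2f8, Mgst2 and Lnx1.

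Transcription factors of the hepatocyte moved in both directions. Foxa1, a pioneer factor, had 1322 and 2127 in the GH pools and 527 and 795 in the Hypox pools, and rose by 1.37 ± 0.13 (adjusted p = 0.00024). The homeobox gene Hhex, needed for liver development, had 41398 and 50019 in the GH pools and 15029 and 17082 in the Hypox pools (1.51 ± 0.21, adjusted p = 0.0025). Within each array the GH pool was higher for both genes, and the other probe of Hhex gave 1.06. In a list of 32 liver transcription factors that did not hold Hhex, 3 rose, 2 fell, and the median was -0.02. Trim24, a corepressor, rose by 0.72 ± 0.15 and Pparg, the nuclear receptor of lipid storage, by 0.59 ± 0.14 (adjusted p = 0.043). Nr1i2, the receptor for foreign compounds, stood at -0.49 ± 0.11 and Hnf4a, which maintains hepatocyte identity, at -0.36 ± 0.09, but median centring turned them to 0.18 and 0.26. Among 18 ER stress genes, Xbp1, which drives secretory capacity, rose by 0.90 ± 0.16 (adjusted p = 0.0098). Ddit3, which encodes the stress factor CHOP, fell by 0.84 ± 0.17 on the log2 scale (adjusted p = 0.018), and Herpud1, of ER-associated degradation, by 0.69 ± 0.17 (adjusted p = 0.042). The median of that list was -0.08.

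The largest fall was that of G0s2, an inhibitor of the lipase that breaks down stored triglyceride. Its signals were 1424 and 1086 in the GH pools, against 4680 and 4364 in the Hypox pools. The arrays gave similar falls, of -1.72 and -2.01 (-1.86 ± 0.28, 3.63-fold, adjusted p = 0.0041). Hamp2, a hepcidin gene with a close paralog that the probe may also read, had 45963 and 114140 in the GH pools and 178383 and 244401 in the Hypox pools (-1.53 ± 0.36, adjusted p = 0.037). Inhbe, an activin subunit made in liver, fell by 1.38 ± 0.34 (adjusted p = 0.049). Fam13a fell by 1.28 ± 0.21, and the ubiquitin ligase genes Lnx1 and Rnf170 fell by 1.29 ± 0.21 and 1.16 ± 0.18. Other probes gave -0.81 for Fam13a, -1.25 and -0.22 for Lnx1, and -0.68 for Rnf170. The glutathione transferase genes Mgst2 and Gstm2 fell by 1.18 ± 0.27 and 1.14 ± 0.20. Ppp1r3b, which brings protein phosphatase 1 to glycogen, fell by 1.18 ± 0.26 (adjusted p = 0.029). The 10 largest falls, which include Gadd45b above, kept their direction under median centring. There G0s2 stood at -1.23 (adjusted p = 0.025) and was the single call left among 21 named falls. Median centring lifted the median of all genes by 0.27, and by 0.65 among the 6546 brightest genes.

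Calls among genes of fatty acid synthesis went one way. Of 17 lipogenic genes tested, 2 fell and none rose, against 0.825% and 2.34% of all genes. In this list 3 lay above 0, against 14069 of 26191 over all genes, and the median of -0.21 became 0.27 under median centring. Fasn, the fatty acid synthase, had 19261 and 13277 in the GH pools and 31483 and 33740 in the Hypox pools, lower in the GH pool of each array (-1.03 ± 0.16, adjusted p = 0.0057). Thrsp, a lipogenic regulator induced by thyroid hormone, fell by 0.99 ± 0.23 (adjusted p = 0.034), and was also the only call of 9 thyroid hormone targets. Scd1, at -1.03 (adjusted p = 0.22), did not pass. At 30 min in females the lipogenic list had a median of -0.22, with Fasn at -0.93 and Thrsp at -0.99, neither called. In males at 90 min the list had 2 rises, 1 fall and a median of -0.11. There Fasn stood at -0.48 and Thrsp at 0.25, neither called. Among 28 PPAR alpha targets, Acot3 was the 1 that rose, and the median was 0.03. The 22 cholesterol synthesis genes had no call and a median of -0.04. In the list of glucose output and insulin response, 2 of 17 genes fell and none rose. They were Ppp1r3b and the glucose 6-phosphate transporter gene Slc37a4 at -0.55 ± 0.10, which median centring turned to 0.06. Among 11 glucocorticoid targets, Fkbp5, a chaperone of the glucocorticoid receptor, rose by 0.96 ± 0.14 (other probes 0.30 and 0.42) along with Dusp1, and Tsc22d3 fell by 0.89 ± 0.18. The 17 bile acid genes, the 17 clock genes and the 13 heat shock genes had no call, with medians of 0.00, -0.08 and -0.10.

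Among female-biased genes, 4 of 28 rose and none fell, with a median of 0.19, against 2.34% of all genes called higher. Without array 1 there were 3 rises, and without array 2 there was no call. They were Acot3, Fmo2, a flavin monooxygenase, at 1.14 ± 0.13 (adjusted p = 0.00094), Trim24 and Lifr. In males at 90 min, the female-biased list had 6 rises, no fall and a median of 0.14, and Acot3, Fmo2 and Lifr were called there too. None of 20 male-biased genes was called at 90 min in either sex, and their median in females was -0.03. Of 25 acute-phase genes, Il1rn, the interleukin-1 receptor antagonist, was the only call, with 7223 and 7796 in the GH pools and 2920 and 3135 in the Hypox pools. Its arrays agree within rounding, at 1.31 each (1.31 ± 0.20, adjusted p = 0.0045), and a second probe gave 0.70. The acute-phase list as a whole had a median of 0.41, which was 0.10 without array 1 and 0.56 without array 2, with no call in either case. No gene was called among 18 of NF-kB and chemokines or 15 induced by interferon, with medians of 0.24 and 0.15.

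Cell type markers were read beside these results. The hepatocyte list had 1 call of 11, Hnf4a, and a median of -0.08, and its summed signal was 933619 and 1430808 in the GH pools and 1329749 and 1087050 in the Hypox pools. Among 11 Kupffer cell and macrophage markers, 10 lay above 0, against 14069 of 26191 over all genes, with a median of 0.43 and no call. Their summed signal was 65377 and 85591 in the GH pools and 56619 and 61287 in the Hypox pools, and their part in the medians of the immediate-early and acute-phase lists was not tested. In bulk tissue, more cells of a type and more RNA per cell cannot be told apart. Clec4g, a lectin of sinusoidal endothelium, rose by 0.27 ± 0.06 as the only call of 10 endothelial markers. Markers of stellate cells, cholangiocytes, lymphocytes, neutrophils, erythroid cells, skeletal muscle, pancreas and adipocytes had no call, and their medians ran from -0.28 (adipocyte) to 0.15 (lymphocyte). Skeletal muscle markers summed to 2135 and 4349 in the GH pools and 2273 and 4045 in the Hypox pools, and 4 of these genes were not above background in any channel. After 2 injections the muscle list stood at a median of -2.88, with 9 of 11 lower.

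The response of females was set against that of males at the same time. The male comparison shares no pool with the female one, and it had 1302 calls (4.97%), of which 890 (3.4%) were rises and 412 (1.57%) falls. Of the 614 female rises, 540 (87.9%) were above 0 in males, and 270 were also called there. These 270 are 44% of the female rises and 30.3% of the male rises. Of the 216 female falls, 171 (79.2%) were below 0 in males and 53 were also called, which is 24.5% of the female and 12.9% of the male falls. The median of the female rises was 0.48 in females and 0.29 in males, and that of the falls was -0.48 in females and -0.18 in males. Since these genes were selected on the female values, their female medians are raised by that choice.

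A test of the difference between the sexes called 2 genes (0.00764%), and 2640 genes had an unadjusted p under 0.05. Zfp790, a zinc finger gene, rose by 0.41 in females and 1.15 in males, a difference of -0.74 ± 0.08 (adjusted p = 0.0090). Fgfr3, a fibroblast growth factor receptor gene, stood at -0.10 in females and 0.61 in males (difference -0.71 ± 0.08, adjusted p = 0.011). Both ratios were lower in females than in males. Female and male arrays lay on different slides and scan days, which cannot be told apart from sex here. The ratio of Cish was 4.17 in females and 4.17 in males, with a difference of -0.01 ± 0.96, an error that leaves room for sizeable differences either way. Socs2 stood at 3.89 in females and 3.33 in males, Myc at 2.97 and 2.62, and Nrep at 2.59 and 2.97, and no difference passed. Igf1 stood at 0.73 in females and 0.47 in males (difference 0.26 ± 0.23, adjusted p = 0.77). Rrs1, at 0.60 in females and 1.46 in males, differed by -0.86 ± 0.20 (adjusted p = 0.19). Hepacam, at 1.63 in females and 0.02 in males, differed by 1.61 ± 0.44 (adjusted p = 0.24), and Inhbe, at -1.38 in females and 0.59 in males, by -1.97 ± 0.49 (adjusted p = 0.20).

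**Figure D4:**
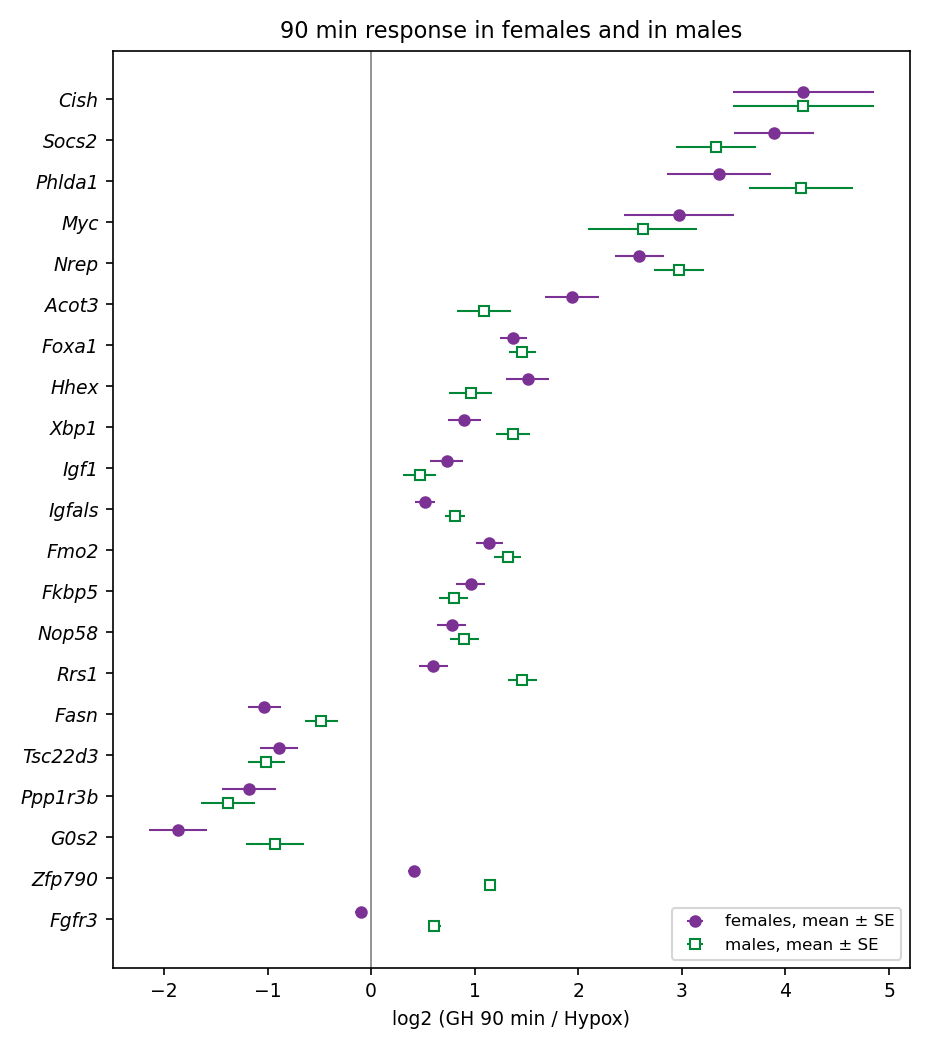
Log2 ratio of GH over Hypox 90 min after 1 injection for 21 named genes, in females (filled circles, upper) and males (open squares, lower), with the SE of the fit. Cish lies at 4.17 in both sexes, and among the genes drawn the tested difference passed only for Zfp790 and Fgfr3, at the bottom.

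The female time points show how the same genes stood earlier and after renewed stimulation. All 3 comparisons use female Hypox pools, of 3 mice each at 30 min and of 2 each at 90 min and after 2 injections. Their values are given side by side, and the tests of differences below do not model pools that may be shared. Time after injection cannot be told apart from the Hypox pool used when 90 min is set against 30 min. At 30 min after 1 injection, 5 genes (0.0191%) were called, 3 higher (0.0115%) and 2 lower (0.00764%), and 30 min after the last of 2 injections, 2209 (8.43%), with 1153 higher (4.4%) and 1056 lower (4.03%). The 614 genes called higher at 90 min had medians of 0.06 at 30 min, 0.48 at 90 min and 0.09 after 2 injections. The 216 called lower had medians of -0.15, -0.48 and -0.14 at the same points. Since both sets were selected on the 90 min values, their medians at 90 min are enlarged by that choice.

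Different courses could be seen among the named genes. Cish stood at 2.88 at 30 min, 4.17 at 90 min and 3.98 after 2 injections, Socs2 at 2.97, 3.89 and 3.60, and Phlda1 at 3.31, 3.36 and 2.75, so these were high at every point. At 30 min, only Socs2 among them was called (adjusted p = 0.027), and not Cish (adjusted p = 0.25) or Phlda1 (adjusted p = 0.055). Igf1 stood at 0.36, 0.73 and 1.53, and Igfals at 0.30, 0.52 and 1.92, with the highest value last. Fos stood at 0.39, 1.58 and -1.29, Il1rn at 0.46, 1.31 and -0.37, and Myc at 0.63, 2.97 and 1.06, with the highest value at 90 min. Of these, the difference from 30 min did not pass for Fos (1.19 ± 0.50, adjusted p = 0.54) or Il1rn (0.85 ± 0.28, adjusted p = 0.38), nor that from 2 injections for Myc (1.90 ± 0.75, adjusted p = 0.21). Bcl6 was at -0.20, -0.04 and -1.45.

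The difference between 90 and 30 min passed for 41 genes (0.157%), 38 of them higher (0.145%) and 3 lower (0.0115%) at 90 min. Nrep stood at 2.59 at 90 min, with arrays of 2.48 and 2.70, against -0.07 at 30 min, with arrays of -0.10 and -0.04. This was the largest difference among genes with a symbol that passed (2.66 ± 0.33, adjusted p = 0.010). Nmrk1, a kinase of nicotinamide riboside, stood at 0.92 against -0.75 (difference 1.67 ± 0.21, adjusted p = 0.010). Fzd7, Sybu and Nceh1 differed by 1.47 ± 0.18, 1.47 ± 0.24 and 1.45 ± 0.22. Zkscan1, a zinc finger gene, stood at -0.57 against -0.06 (difference -0.52 ± 0.08, adjusted p = 0.029), which median centring turned to 0.14. For Myc, at 2.97 against 0.63, the difference of 2.33 ± 0.75 did not pass (adjusted p = 0.37). Without array 2, no gene passed this test, and without array 1, 41 did.

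The difference between 90 min after 1 injection and 30 min after the last of 2 passed for 539 genes (2.06%), 321 of them higher (1.23%) and 218 lower (0.832%) at 90 min. Fos differed by 2.87 ± 0.50 (adjusted p = 0.016), at 1.58 against -1.29, and Dusp1 by 2.11 ± 0.44, at 1.32 against -0.79. The renin genes Ren1 and Ren2, close paralogs that probes may not separate, stood at 1.25 and 1.29 at 90 min against -1.84 and -1.93 after 2 injections. Their differences were 3.09 ± 0.57 and 3.22 ± 0.60, although neither was called at 90 min itself (adjusted p = 0.13 and 0.14). Asb14, at 0 against -2.16, was not well above background in all 4 channels at 90 min. Among genes lower at 90 min, the differences were, for Rbm45, an RNA-binding protein, -2.77 ± 0.35, for Ifi27l2b -2.32 ± 0.40, for Serpina9 -2.18 ± 0.34, for Ddc, which makes dopamine and serotonin, -1.88 ± 0.23, and for Bhlha15, a factor of secretory cells, -1.83 ± 0.33. The muscle markers given above were also lower after 2 injections, and their part in these differences was not tested. The difference for Igfals was -1.41 ± 0.14 (adjusted p = 0.0021), lower at 90 min, while Igf1, with -0.80 ± 0.23, did not pass (adjusted p = 0.093). Without array 2, 13 genes passed, and without array 1, 508.

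**Figure D5:**
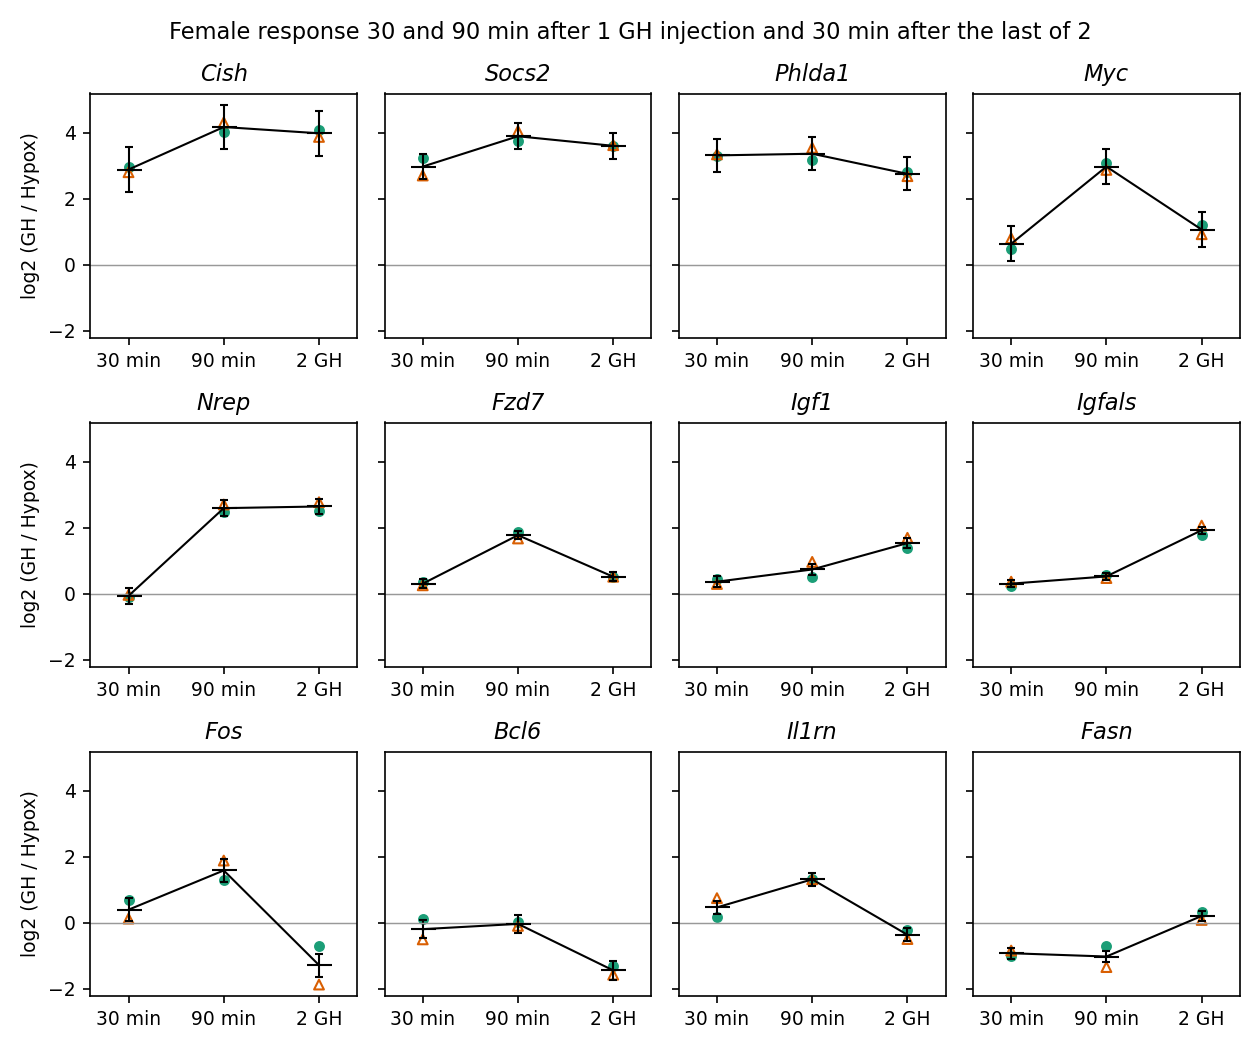
Log2 ratio of GH over Hypox in females for 12 genes, 30 and 90 min after 1 injection and 30 min after the last of 2 (2 GH), with array 1 as circles, array 2 as triangles and the mean ± SE of the fit in black; lines join the means as a guide. Cish, Socs2 and Phlda1 are high at all points, although only Socs2 of these was called at 30 min. Nrep is near 0 at 30 min, Igf1 and Igfals are highest after 2 injections, and Fos, Il1rn and Myc are highest at 90 min.

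The arrays of female Hypox over sham-operated females show where the same genes stood after loss of the pituitary. They use the Hypox group too and are given as values with no test. Array 2 of that comparison had the lowest share of spots well above background in its red channel, 57.1%. Cish was at -4.14 in Hypox over sham and 4.17 in GH over Hypox, and Socs2 at -3.81 and 3.89. Igf1 was at -3.25 and 0.73, Igfals at -2.49 and 0.52, and Lifr at -3.12 and 0.45, so that the ratio after GH was a small part of the ratio after surgery. Nrep was at -2.02 and 2.59, and E2f8 at -3.85 and 1.51. Myc, at -0.18 and 2.97, and Fos, at 0.14 and 1.58, stood near sham level in Hypox females on average, although the 2 arrays of Hypox over sham disagreed in sign for both. Il1rn was at 1.45 and 1.31, and Thrsp at -2.08 and -0.99, with the same sign in both comparisons. The 10 largest falls after GH ran from -0.81 (Ppp1r3b) to 1.76 (Hamp2) in Hypox over sham. The shared Hypox group by itself favours opposite signs in these comparisons.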

How the data were processed

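RNA pools of livers were hybridised in pairs to 22 Agilent 2-colour arrays, per the labels. The deposited scanner files hold spot and background intensity of both channels, per the file headers from Agilent Feature Extraction, with flags and the software's log10 ratio of red over green. The value table holds log2 ratios that the authors deposited. Each column equals 1 scanner file within 0.005, but 16 of 22 columns equal the other replicate's file. The scanner files' numbering and dyes were used.

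Intensities were background-corrected (normexp, offset 50) and loess-normalized within each array with limma 3.58.1 in R 4.3.3, with control and outlier spots at weight 0. Every ratio was turned to GH over Hypox by the labelled dyes. Spots were averaged per probe, and the brightest probe stood for a gene. RefSeq symbols were found for 22072 of 41174 probes. Genes passing the filter on dim probes, 26191 of 33767, were fitted with a coefficient for each of 11 comparisons and a dye term, and p values were adjusted by Benjamini-Hochberg over all of them. The fit had 10 residual degrees of freedom, and the number of arrays limits the precision. The script was tested on simulated data. On the arrays of this comparison, 70.9% to 74.8% of spots per channel were well above background.

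Genes were named by rule: Cish, Socs2, Myc, Nrep, Igf1 and Bcl6; of called genes with a symbol and a bright enough channel, the 15 that rose and 10 that fell most; up to 4 called members of each of 40 lists; and for each difference the 5 largest each way. Members and lists were chosen with earlier results of these data known. Alternatives covered background, normalization, filter, probe choice, dye, model, blocks and left-out arrays. A result on 1 further listed gene is not reported here.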

Additional observations from a re-analysis of the deposited data

Results flagged for a closer look

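Differences between comparisons passed a direct test in 3 cases. The tests within females did not model Hypox pools that may be shared between comparisons. Between females and males 90 min after GH, 2 genes passed, with differences of -0.74 for Zfp790 and -0.71 for Fgfr3 on the log2 scale.

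Between 90 and 30 min in females, 41 genes passed. The differences were 2.66 for Nrep, 1.67 for Nmrk1, 1.47 for Fzd7, 1.47 for Sybu, 1.45 for Nceh1 and -0.52 for Zkscan1.

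Between 90 min after 1 injection and 30 min after the last of 2, 539 genes passed. Higher at 90 min were Ren2 at 3.22, Ren1 at 3.09, Fos at 2.87, Asb14 at 2.16 and Dusp1 at 2.11. Asb14 was not well above background in any channel at 90 min. Lower at 90 min were Rbm45 at -2.77, Ifi27l2b at -2.32, Serpina9 at -2.18, Ddc at -1.88 and Bhlha15 at -1.83.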

How the results depend on the processing

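The count of 830 calls became 1611 without background correction (838 higher, 773 lower), 539 without the sham arrays, 533 without the dye term and 5 from the 2 arrays alone, and ran from 88 to 501 when 1 replicate was left out. Of all calls, 74.0% were higher, against 55.4% with the scanner log ratio (531 and 427 genes), 55.3% with the deposited value table and 85.4% without replicate 1. With the scanner log ratio, 336 of the 614 rises and 160 of the 216 falls were still called. Median centring gave 846 higher and 212 lower, with all 614 rises still higher but only 314 still called. It left 76 of the 216 falls lower and 5 called. It turned Azin1 to 0.23, Slc37a4 to 0.06, Nr1i2 to 0.18, Hnf4a to 0.26 and Zkscan1 to 0.09, and the Zkscan1 difference between 90 and 30 min to 0.14; it shifted the median of all genes by 0.27. The female minus male count of 2 became 0 with median centring or no dye term, 26 without background correction, 1 with the scanner log ratio, the value table, the mean of probes or no sham arrays, and 7 with the loop model, and ran from 2 to 19 over left-out replicates. The 90 minus 30 min count of 41 became 0 with median centring, 74 without background correction, 27 without sham arrays and 130 with the loop model, and ran from 0 to 41 over left-out replicates. The count of 539 against 2 injections became 20, 1442, 343 and 980 under the same 4 settings and 250 without the dye term, and ran from 13 to 508. The cause was not tested. Correlations of the deviations of replicate 1 with those in other comparisons ran from -0.245 to 0.076. The deviations were taken after the dye term, and dye largely follows the replicate number. These correlations therefore cannot show whether the numbers pair the arrays. The replicate block gave 890 calls, and 3, 46 and 578 for the differences. Over all alternatives, named ratios kept their side of the threshold 820 times, kept direction but lost the call 208 times and gained one 6 times. The 820 include uncalled ratios whose sign changed, such as Bcl6, at -0.04 as reported and 0.62 under median centring. They also include settings that could add little: quantile scaling of mean intensity between arrays leaves every ratio and all 830 calls unchanged. The deposited value table repeats the scanner log ratio. For named differences, whose alternatives were chosen after seeing the data, as were those of the lists, direction and call were kept 208 times and the call was lost 60 times. Slide, dye and replicate coincide for this comparison, and dim probes limit what could be measured.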

Other observations

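Further called genes, named after their values were seen, ranked just behind those of the rule. Sav1, a scaffold of the Hippo pathway, rose by 1.24 ± 0.10 (adjusted p = 2e-04), and Frat1, which binds the kinase GSK3, by 1.04 ± 0.10 (adjusted p = 0.00023). Pkd2, a cation channel, rose by 1.33 ± 0.19 (its other probe gave 0.22), Ntf3, a neurotrophin, by 1.17 ± 0.12, and Trib1, a pseudokinase, by 1.17 ± 0.25. Abhd5, the coactivator of the lipase that G0s2 inhibits, rose by 0.94 ± 0.14 (adjusted p = 0.0040). Klf15, a Krüppel-like factor of amino acid and glucose metabolism, fell by 0.94 ± 0.13 (adjusted p = 0.0024) on the log2 scale. Etnk2, an ethanolamine kinase, fell by 1.12 ± 0.23, Slc2a5, the fructose transporter, by 0.81 ± 0.18, and Atf5, a stress-responsive factor, by 0.74 ± 0.15.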
